A study of Mus musculus with 3 samples.

Results

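The transcripts described are those of the tricarboxylic acid (TCA) cycle and of itaconate synthesis in RAW 264.7 cells, a mouse macrophage line. The genes are *Irg1*, which the array files name *Acod1*, and *Cs*, *Idh1*, *Idh2*, *Idh3a*, *Ogdh*, *Fh1*, *Mdh1* and *Mdh2*. They were found by symbol among the gene probes of the arrays, and are 9 of 26840 genes with a symbol, with 16 of 56605 gene probes. Total RNA was labelled with Cy3 and hybridised to mouse expression arrays, whose probes are 60 bases long. There were 3 arrays, with 1 for each condition. The LPS group received lipopolysaccharide, the TLR4 agonist, at 50 ng/mL and no bacteria. The CRL1505 + LPS group was first kept with *L. rhamnosus* CRL1505 at 50000000 cells/mL for 24 h and the CRL1506 + LPS group with *L. plantarum* CRL1506 at the same number and for the same time, and both then received the same LPS. LPS was given for 12 h by the study's design text and for 3 h by the sample descriptions. All groups received LPS, and cells without it were not analysed here, so nothing below measures the response to LPS itself. The cells are 1 cultured line and no primary macrophage.

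The TCA cycle oxidises acetyl groups in the mitochondrial matrix. Citrate synthase (*Cs*) makes citrate, the isocitrate dehydrogenases turn isocitrate into 2-oxoglutarate, *Ogdh* is the first subunit of the complex that makes succinyl-CoA, fumarase (*Fh1*) makes malate, and malate dehydrogenase (*Mdh2*) restores oxaloacetate. *Irg1* encodes aconitate decarboxylase, which draws cis-aconitate out of the cycle and makes itaconate. It is known as one of the genes most strongly induced by LPS in macrophages, and itaconate as an inhibitor of succinate dehydrogenase.

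The start regions of the genes differed in sequence. The 250 bases before the transcription start were read for 8 of the genes, with 14 starts in all, on GRCm38.p6 (RefSeq). *Idh3a* had no entry, and *Ogdh* held 6 of the 14 starts, so the starts are not independent of each other. The 2 regions shown belong to the gene with the highest ratio to LPS and to the gene with the lowest, both with CRL1505. They are *Irg1* (chr14:103046762-103047011, plus strand) and the more upstream start of *Idh1* (chr1:65186480-65186729, minus strand), written 5′ to 3′ up to the start. The capitals mark a TATA box (TATAAA), GC boxes (GGGCGG) and CCAAT boxes (CCAAT), searched on both strands.
Irg1: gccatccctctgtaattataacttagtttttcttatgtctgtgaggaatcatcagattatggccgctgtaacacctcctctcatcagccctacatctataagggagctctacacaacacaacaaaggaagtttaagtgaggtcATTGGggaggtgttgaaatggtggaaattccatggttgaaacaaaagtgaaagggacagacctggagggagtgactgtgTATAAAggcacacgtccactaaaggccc
Idh1: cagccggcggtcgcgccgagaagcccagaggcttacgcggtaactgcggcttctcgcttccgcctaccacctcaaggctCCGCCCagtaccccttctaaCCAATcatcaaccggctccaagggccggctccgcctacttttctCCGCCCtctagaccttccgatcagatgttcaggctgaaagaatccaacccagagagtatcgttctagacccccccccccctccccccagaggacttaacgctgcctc
*Irg1* held a TATA box 28 bases before its start and was the only gene of the 8 with one, beside 12.4% of 32851 promoters of the same length. A GC box was found at 9 of the 14 starts, beside 32.7% of all promoters, with at least 1 in each of the other 7 genes and none in *Irg1*. CCAAT boxes were found at 10 of the 14, beside 33.8%, in all genes but *Mdh2*. An interferon-stimulated response element (GAAA, any 2 bases and GAAA) was found in none of the 8, and in 2.98% of all promoters. The NF-kB consensus was found at 2 of the 14, in *Idh2* and *Ogdh*, beside 9.55% of all promoters. None of the motifs in the 2 regions shown overlapped another. The GC content was 44.4% for *Irg1* and 61.6% for this start of *Idh1*, beside a median of 52.4% over all promoters. These matches describe letters and not the binding of a factor.

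Transcripts of all 9 genes were well above background on each of the 3 arrays. Of their 16 probes 15 were, and the exception was a cDNA clone probe of *Ogdh*, which was well above background on none. No spot of these probes was saturated or marked as an outlier. The values given are log2 intensities minus the 75th percentile of the array, taken over its gene spots, so that 0 is a spot brighter than 75% of them. Each gene is represented by its brightest probe. Probes differ in how they respond, so levels are compared between arrays and not between genes. As there was 1 array per condition, no test was possible. The SD of a log2 ratio between different probes of a gene, with medians of 0.23 for CRL1505 + LPS against LPS, 0.22 for CRL1506 + LPS against LPS and 0.32 between the strains, is used below as the spread. These are medians, so many genes had a larger SD, and for some it was at least 0.64, 0.79 and 0.94, respectively. A ratio called larger than the spread can thus lie within the SD between probes of some genes. The spread covers the error of probes and leaves out that of cultures.

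Some facts of the arrays touch each comparison. LPS and CRL1506 + LPS shared a slide and a scan run, and CRL1505 + LPS was on a different slide and in a different run. CRL1505 and its slide therefore cannot be told apart. Of the gene spots, 48.5% were well above background on that array, beside 54.5% with LPS and 55.3% with CRL1506 + LPS. All of 9 macrophage markers were well above background on each array. Of the markers of other cells, *Cd3e*, *Cd4* and *Ms4a1* were detected on each array, *Cd3g*, *Cd8a* and *Cd79a* on none, *Epcam* with LPS and CRL1506 + LPS, and *Col1a1* with CRL1506 + LPS. The part of these markers in the results was not tested, and in bulk RNA fewer cells cannot be told apart from less RNA per cell.

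**Figure D1:**
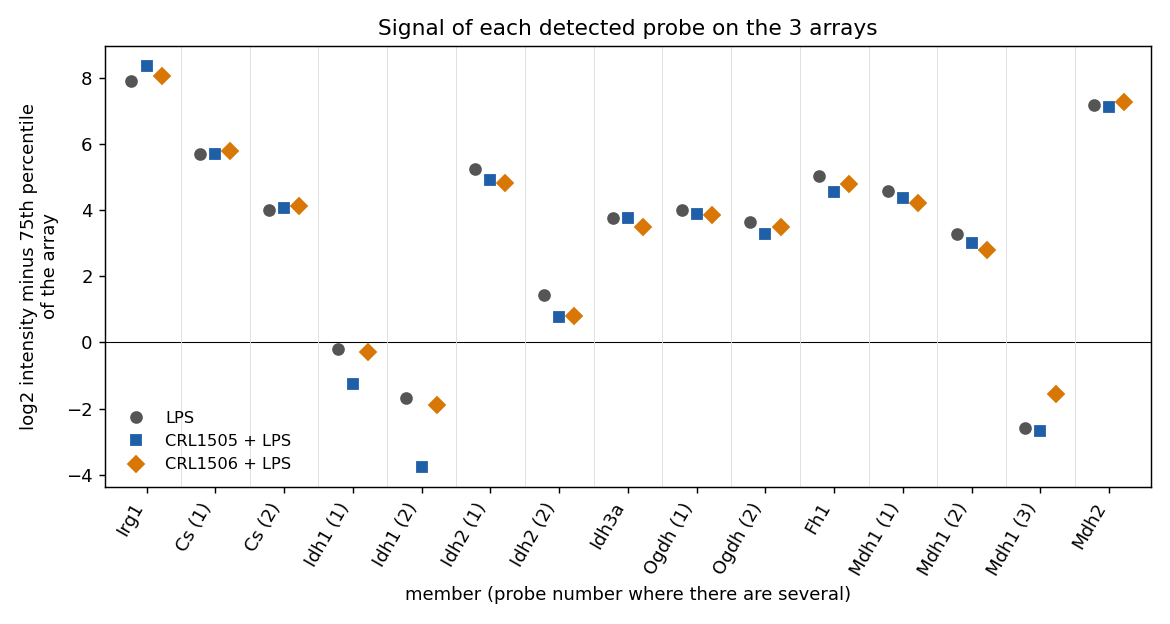
Log2 intensity minus the 75th percentile of the array (y axis) for each of the 15 detected probes (x axis), with 1 point per array and no error bars, since each condition had 1 array. The points of most probes lie close together, while both probes of *Idh1* are lowest with CRL1505 + LPS and the third probe of *Mdh1* is highest with CRL1506 + LPS.

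With CRL1505 + LPS, 1 of the 9 genes differed from LPS alone by at least 2-fold, the threshold that the methods of the study state. This was *Idh1*, which was lower. No gene was at least 2-fold higher. Over all 15603 genes compared, 8.41% were at least 2-fold lower and 9.93% at least 2-fold higher. The 1 gene that was lower is 11.1% of the 9, a share near that over all genes. The median log2 ratio of the 9 genes was -0.12, beside 0.01 for all genes, and 7 of them lay below the latter. The median size of the ratio without its sign was 0.24, beside 0.41 for all genes. With CRL1506 + LPS none of the 9 genes passed 2-fold in either direction, beside 5.67% of 16279 genes higher and 3.53% lower. The median log2 ratio was -0.16, beside -0.06 for all genes. Between CRL1505 + LPS and CRL1506 + LPS none passed 2-fold, beside 9.02% of 15780 genes higher and 7.47% lower with CRL1505. The median was 0.04, beside 0.03. How all genes past 2-fold divided into higher and lower varied with the scaling. For CRL1505 54.1% of them were higher, but 76.1% when arrays were scaled by their medians and 18.5% when they were scaled by spike-in probes. For CRL1506 these shares were 61.6%, 43.4% and 54.5%.

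**Figure D2:**
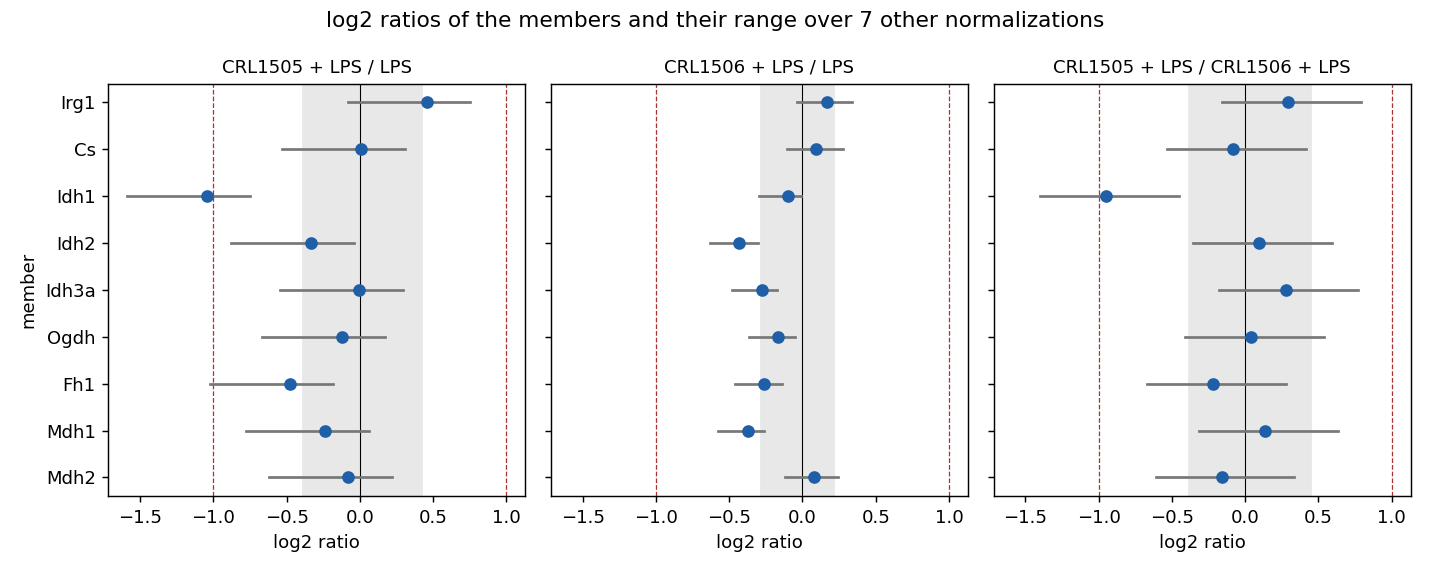
Log2 ratio (x axis) of each gene (y axis) in the 3 comparisons. Points are the main values, grey lines the range over 7 other normalizations, the shaded band the range from the 25th to the 75th percentile of all genes and the dashed lines 2-fold. *Idh1* lies apart at -1.05 with CRL1505 against LPS, and the grey lines of most genes cross 0 in that comparison.

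*Irg1* was bright on each array, with intensities of 178278 with LPS, 170523 with CRL1505 + LPS and 187855 with CRL1506 + LPS. Its single probe lies at chr14:103455171-103455231 on mm9, on the plus strand, and starts at base 1968 of the mRNA. Its normalized log2 signal was 7.91 with LPS, 8.37 with CRL1505 + LPS and 8.07 with CRL1506 + LPS. It was thus lowest with LPS and highest with CRL1505 + LPS. The log2 ratio to LPS was 0.46 for CRL1505 (1.37-fold), which is larger than the spread between probes, and 0.17 for CRL1506 (1.12-fold), which is smaller. The difference between the strains, 0.29, was also smaller than the spread. Since the intensity with CRL1505 was below that with LPS before the arrays were scaled, the sign of the ratio rests on the scaling. It ranged from -0.08 to 0.76 over 7 other normalizations for CRL1505 and from -0.03 to 0.34 for CRL1506, and was below 0 only with spike-in scaling for CRL1505 and only with scaling by the median for CRL1506. Between the strains it ranged from -0.16 to 0.79. Relative to the median of all genes well above background on both arrays, *Irg1* was higher by 0.40 with CRL1505 and by 0.23 with CRL1506. Its ratio exceeded that of 76.3% of genes with CRL1505 and of 71.6% with CRL1506. *Irg1* therefore stood above the middle of the genes with both strains, and below 2-fold.

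The genes whose ratios to LPS were most like those of *Irg1* were sought by the distance over both log2 ratios, among 13107 genes detected on the 3 arrays. The 5 nearest were *4930453N24Rik*, *Taf1b*, *Wipf1*, *Psma6* and *Prr14l*, at distances from 0.0011 to 0.012. *Psma6* encodes a proteasome subunit, *Taf1b* a factor of RNA polymerase I and *Wipf1* a partner of the WASP protein. With 2 ratios from 3 arrays and a shared LPS array, such closeness is a description of values.

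Citrate synthase, the enzyme that supplies the citrate from which cis-aconitate is made, was nearly level on the 3 arrays. *Cs* measured 5.71 with LPS, 5.72 with CRL1505 + LPS and 5.80 with CRL1506 + LPS. The log2 ratios to LPS were 0.01 and 0.09, and the second probe gave 0.04 and 0.11. All of these are smaller than the spread between probes.

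Of the isocitrate dehydrogenases, *Idh1* differed most. It encodes the NADP-dependent enzyme of the cytosol and peroxisomes, which is a source of NADPH outside the mitochondria. Its probes match coding sequence at both ends of the gene and are shown because they carry the largest difference among the 9 genes. The probe near the 5′ end lies at chr1:65221829-65221888 and the probe at the 3′ end at chr1:65206035-65206094, both on the minus strand of mm9. The first 56 bases of the latter are printed, and the capitals mark the stop codon.
Idh1 5′ probe: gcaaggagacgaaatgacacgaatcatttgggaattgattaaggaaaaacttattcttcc
Idh1 3′ probe: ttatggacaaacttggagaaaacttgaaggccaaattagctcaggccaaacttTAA
The 3′ probe was the brighter, with intensities of 647 with LPS, 218 with CRL1505 + LPS and 567 with CRL1506 + LPS. Its normalized log2 signal was -0.20, -1.25 and -0.30. The array with CRL1505 stood below the other 2, which lay within 0.10 of each other.

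The log2 ratio of *Idh1* to LPS was -1.05 with CRL1505 (2.06-fold lower) and -0.10 with CRL1506 (1.07-fold lower). CRL1505 + LPS was lower than CRL1506 + LPS by a log2 ratio of -0.95 (1.93-fold), which is larger than the spread between probes of 0.32. The 5′ probe gave -2.08 (4.22-fold lower) with CRL1505 and -0.22 with CRL1506. It thus went the same way, and by more. This probe was dim, with intensities of 231, 38.1 and 186, and its value of -3.76 with CRL1505 + LPS lay near the lowest signal well above background on that array, -4.12. Its fold is therefore less certain than that of the 3′ probe. With CRL1505, 7.79% of all genes had a ratio as low as that of *Idh1*, and with CRL1506 45.8%. Over 7 other normalizations the ratio with CRL1505 ranged from -1.59 to -0.75 and the share of genes as low from 5.61% to 8.04%. It was below 0 under each, and it missed 2-fold when arrays were scaled by their medians, after normexp background correction and in the deposited log2 table. As CRL1505 was alone on its slide, strain and slide cannot be told apart here either.

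*Idh2*, the NADP-dependent enzyme of the mitochondria, was lower with both strains than with LPS. Its log2 signal was 5.25 with LPS, 4.91 with CRL1505 + LPS and 4.82 with CRL1506 + LPS. The log2 ratios were -0.34 (1.26-fold lower) and -0.43 (1.35-fold lower), and the strains lay within 0.10 of each other. The second probe gave -0.69 and -0.64, so both probes went the same way with both strains. Among all genes, 27.6% had a ratio as low with CRL1505 and 15.2% with CRL1506. The ratio stayed below 0 over the 7 other normalizations, at -0.88 to -0.04 and -0.63 to -0.31, and none of these reached 2-fold.

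*Idh3a* encodes the catalytic subunit of the NAD-dependent enzyme that works in the cycle itself. It measured 3.77 with LPS, 3.77 with CRL1505 + LPS and 3.49 with CRL1506 + LPS. CRL1505 + LPS and LPS were level in these values, but their ratio ranged from -0.54 to 0.29 over 7 other normalizations. The ratio of CRL1506 to LPS was -0.28 (1.21-fold lower), which is larger than the spread of 0.22 and rests on a single probe. It ranged from -0.48 to -0.18 over 7 other normalizations, some within the spread. The difference between the strains, 0.28, was within the spread of 0.32.

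*Ogdh*, the first subunit of the 2-oxoglutarate dehydrogenase complex, was nearly level. It measured 4.01 with LPS, 3.88 with CRL1505 + LPS and 3.84 with CRL1506 + LPS. The ratios were -0.12 and -0.16, within the spread, and the second probe gave -0.36 and -0.17.

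*Fh1*, the fumarase, was lower with both strains. It measured 5.04 with LPS, 4.57 with CRL1505 + LPS and 4.78 with CRL1506 + LPS. The ratios were -0.48 (1.39-fold lower) and -0.26 (1.20-fold lower), each larger than the spread, from a single probe. Over 7 other normalizations they ranged from -1.02, past 2-fold with spike-in scaling, to -0.18 with CRL1505 and from -0.46 to -0.14 with CRL1506, so that some lay within the spread. The difference between the strains, -0.22, was within it. With CRL1505 20.9% of all genes had a ratio as low, and with CRL1506 27.4%.

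Of the malate dehydrogenases, the cytosolic *Mdh1*, which works in the malate and aspartate shuttle, was lower with both strains by its brightest probe. It measured 4.59 with LPS, 4.36 with CRL1505 + LPS and 4.22 with CRL1506 + LPS. The ratios were -0.24 (1.18-fold lower) and -0.37 (1.30-fold lower), and a second probe on the same mRNA gave -0.28 and -0.49. With CRL1505 the ratio of the brightest probe turned to 0.06 when arrays were scaled by their medians. Another probe, designed on a cDNA clone, lies 10323 bases from the nearest of the other probes on mm9. It gave -0.11 with CRL1505 and 1.02 (2.03-fold higher) with CRL1506. This probe was dim, with intensities of 124 with LPS, 80.1 with CRL1505 + LPS and 237 with CRL1506 + LPS. The probes of *Mdh1* thus went opposite ways with CRL1506, and the statement that *Mdh1* was lower holds for the probes on the mRNA alone. *Mdh2*, the mitochondrial enzyme of the cycle, measured 7.20 with LPS, 7.12 with CRL1505 + LPS and 7.28 with CRL1506 + LPS. Its ratios of -0.08 and 0.08 were within the spread. Over 7 other normalizations they ranged from -0.62 to 0.22 with CRL1505 and from -0.12 to 0.24 with CRL1506, some beyond the spread.

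**Figure D3:**
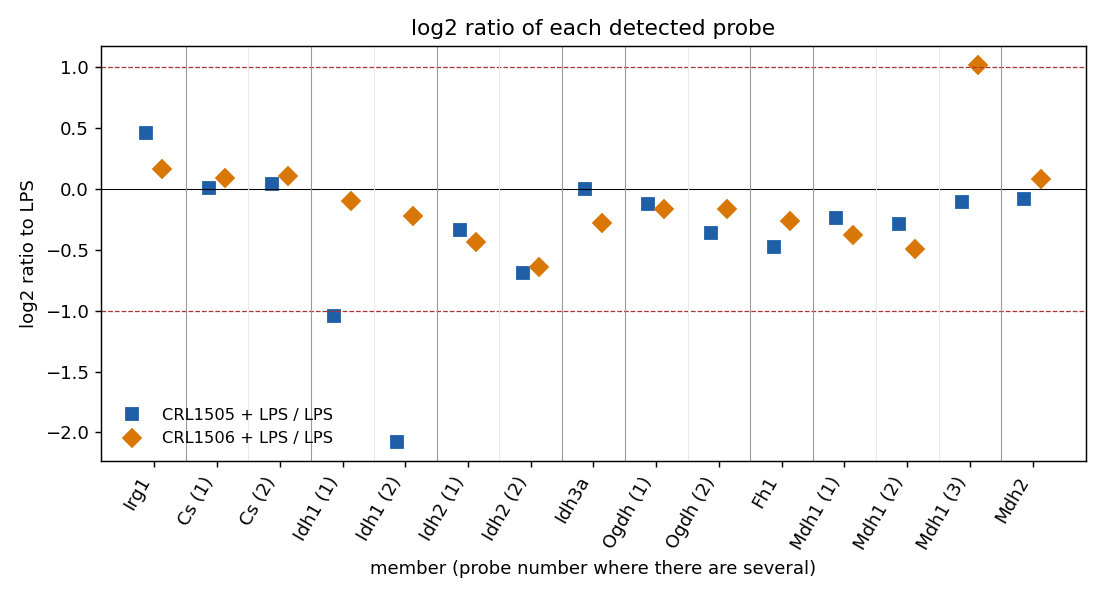
Log2 ratio to LPS (y axis) of each of the 15 detected probes (x axis), with squares for CRL1505 + LPS and diamonds for CRL1506 + LPS; the dashed lines are 2-fold. The probes of *Cs*, *Idh1*, *Idh2* and *Ogdh* keep the sign of the gene, and the third probe of *Mdh1* stands apart at 1.02 with CRL1506.

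The other genes of the pathway were described by 5 lists with 54 genes, all of them on the array and 46 detected on each of the 3. With CRL1505 none of the 50 that could be compared was at least 2-fold higher and 5 were at least 2-fold lower, beside 9.93% and 8.41% of all genes. With CRL1506 none of 51 passed 2-fold, beside 5.67% of all genes higher and 3.53% lower. Between the strains 1 of 50 was at least 2-fold higher with CRL1505 and none lower, beside 9.02% and 7.47%. The median log2 ratio was 0.01 with CRL1505 and -0.14 with CRL1506, and 25 and 37 genes, respectively, had a ratio below 0. The lower share with CRL1505 was thus near that over all genes, and the higher share below it.

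The other subunits of the cycle were all well above background on the 3 arrays, and none of the 12 passed 2-fold. With CRL1505 the lowest was *Sdhd*, a membrane anchor of succinate dehydrogenase, at -0.54. The highest was *Dld*, the lipoamide dehydrogenase shared by the 2-oxoglutarate and pyruvate dehydrogenase complexes, at 0.70. Succinate dehydrogenase, which itaconate inhibits, otherwise had brightest probes near 0 with CRL1505, with *Sdha* at 0.09, *Sdhb* at -0.05 and *Sdhc* at -0.17. The probes of *Sdha* disagreed, and the lowest of its 4 gave -1.26. With CRL1506 the list ranged from -0.43 for *Sucla2*, a subunit of succinyl-CoA synthetase, to 0.16 for *Sdhc*. The median of the list was -0.00 with CRL1505 and -0.17 with CRL1506. The other subunits of the NAD-dependent isocitrate dehydrogenase, *Idh3b* and *Idh3g*, had ratios of -0.05 and 0.05 with CRL1505, close to that of *Idh3a*.

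Genes of pyruvate entry had a median of 0.23 with CRL1505 and -0.17 with CRL1506. Both genes past 2-fold with CRL1505 were lower and encode kinases that switch off pyruvate dehydrogenase. Another of these kinases, *Pdk3*, was not lower with CRL1505, with ratios of 0.18 for CRL1505 and -0.42 for CRL1506. *Pdk1* measured 1.37 with LPS, 0.23 with CRL1505 + LPS and 0.65 with CRL1506 + LPS. Its ratio was -1.15 with CRL1505 and -0.73 with CRL1506, but its other probes reached 0.04 with CRL1505. Over 7 other normalizations the ratio with CRL1505 ranged from -1.69 to -0.85. *Pdk2* was not well above background with CRL1505 + LPS and was at least 2.13-fold lower there, from a dim probe. Over 7 other normalizations its log2 ratio ranged from -1.63 to -0.37, so the 2-fold call was lost under some. *Pdp2*, a phosphatase that switches the same complex on, was higher with CRL1505 + LPS than with CRL1506 + LPS by 1.07, while its other probe gave -0.26. *Pdha1*, a subunit of the complex and near the median of the list with both strains, had ratios of 0.27 and -0.16, while its other probe went the opposite way, at -0.64 and 0.48.

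In the exchange of citrate, malate and aspartate with the cytosol, the dicarboxylate carrier *Slc25a10*, which exports malate and succinate, was 2.63-fold lower with CRL1505. Its single probe measured -0.30 with LPS, -1.69 with CRL1505 + LPS and -1.08 with CRL1506 + LPS. The value with LPS was the highest, and the ratio with CRL1506 was -0.78. With CRL1505 the ratio was at or beyond 2-fold under each of the 7 other normalizations, at -1.94 to -1.08. The list as a whole had a median of -0.13 with each strain, near *Aco1*, the cytosolic aconitase, at -0.19 with CRL1505 and *Got2*, the mitochondrial aspartate aminotransferase, at -0.13 with CRL1506.

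Among the genes of glutamine entry, *Gls2*, a glutaminase, was not well above background with CRL1505 + LPS and was at least 2.45-fold lower. Its log2 ratio ranged from -1.84 to -0.40 over 7 other normalizations, and missed 2-fold under some. Its values were -2.83 with LPS, -4.18 with CRL1505 + LPS and -3.17 with CRL1506 + LPS, so it was dim on all arrays. The list had medians of 0.09 and 0.00, near *Glud1*, glutamate dehydrogenase, at 0.09 with CRL1505 and *Gpt2*, an alanine aminotransferase, at 0.12 with CRL1506. Among the genes of itaconate handling, *Oxgr1*, the receptor for 2-oxoglutarate and itaconate, measured -0.96 with LPS and was not well above background with CRL1505 + LPS. Its log2 ratio was -3.17 as a bound by its single probe, whose spot was uneven with LPS and was an outlier with CRL1506 + LPS, so that no ratio was given for that strain. *Clybl*, which takes part in the breakdown of itaconate, had ratios of -0.20 and -0.55. *Rab32*, which brings itaconate to bacteria-containing vacuoles, had ratios of -0.50 and -0.63, and its partner *Hps4* of -0.17 and 0.18. None of these passed 2-fold. The list had medians of -0.17 and -0.03.

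**Figure D4:**
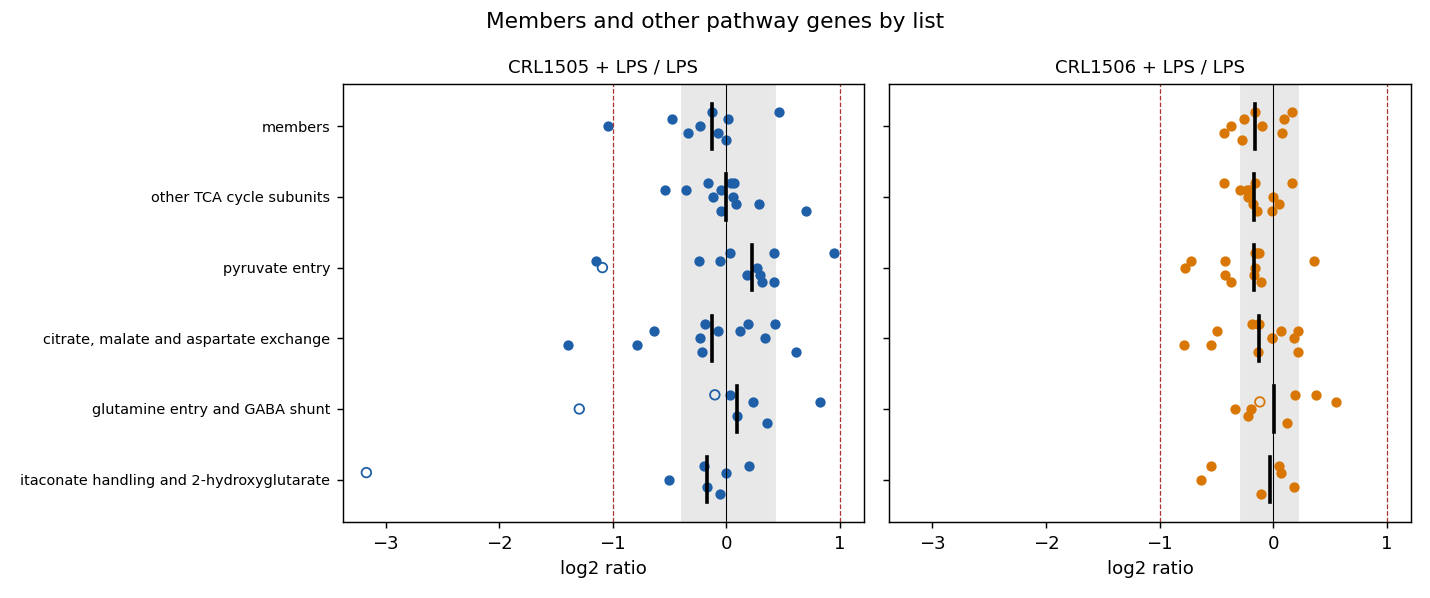
Log2 ratio to LPS (x axis) of the 9 genes and of the genes in 5 further lists (y axis), for CRL1505 on the left and CRL1506 on the right. Open points are bounds, black bars medians, the shaded band the range from the 25th to the 75th percentile of all genes and dashed lines 2-fold. Past 2-fold are *Idh1* and 5 genes of the other lists with CRL1505, all lower, and none with CRL1506.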

How the data were processed

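RNA of RAW macrophages was measured on 3 arrays, with 1 per group and groups taken from the labels. The authors deposited the Feature Extraction output of each array (version 12.0.3.1 per the file headers), in which the processed signal is an intensity corrected for local background and spatial trends but not normalized between arrays. They also deposited a table of log2 values normalized between arrays, which was used as an alternative. The study's methods name GeneSpring for normalization and limma for the statistics of expression, and the submitters' processing notes name limma. Here each array's 75th percentile over gene spots was subtracted on the log2 scale, and outlier spots were dropped. A gene was represented by its brightest probe, preferably one with no outlier spot. Probes well above background on neither compared array were dropped, and where only 1 array passed, the ratio is a bound against the lowest signal well above background on the other array or the probe's own, whichever was higher. The threshold was 2-fold. The study's t-test needs replicates, so no p-value is given.

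The alternatives were scaling by the median, by the 75th percentile of detected spots or by spike-in probes, quantile normalization, cyclic loess, normexp background correction with an offset of 50, the deposited table, 2 other filters on dim probes, outlier spots kept, uneven spots left out, the mean of the probes, the second probe, and thresholds of 1.5-fold and 4-fold. All 9 genes with every probe are named, and of the other lists the genes past 2-fold and those nearest to the median, and any of the other subunits of the cycle. *Pdk3*, *Clybl*, *Rab32*, *Hps4* and the markers were named after their values were seen. The genes and lists were chosen with earlier results of these data known. The tools were limma 3.58.1 in R 4.3.3, and pandas 2.3.3 and NumPy 2.4.6 in Python 3.11.15. On simulated data for CRL1505 + LPS against LPS over 17096 genes, 200 of 200 changed genes were recovered. The changes were larger than 2-fold, in bright genes, and the noise was that of repeated spots alone. Recovery was therefore nearly certain, and it checks the calculation only. Error of slides, scaling, probes and cultures was not simulated. Probe positions are on mm9 and promoters on GRCm38.p6 (RefSeq).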

Additional observations from a re-analysis of the deposited data

How the results depend on the processing

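The number of arrays limited the precision, and no replicate could be left out. No paired analysis was possible because each group had 1 array. Of 351 ratios of the 9 genes under other settings, 301 moved by less than the SD between probes and 50 by more. None changed the sign of a gene past 2-fold, but only *Idh1* with CRL1505 against LPS was past it. Signs of smaller ratios did change with CRL1505 against LPS. Those of *Irg1* and *Cs* changed with spike-in scaling, and those of *Idh3a*, *Ogdh*, *Mdh1* and *Mdh2* with scaling by the median. These 2 scalings shift all genes of a comparison equally, and each gave 18 of the 50 larger moves. Each of the 2 other filters on dim probes, outlier spots kept and uneven spots left out gave 27 ratios that could not move. The probes used were detected on all arrays and had no outlier or uneven spot. The mean of the probes and the second probe could not move *Irg1*, *Idh3a*, *Fh1* or *Mdh2*, which had 1 probe each. With CRL1505 against LPS, the number of the 9 genes at least 2-fold lower was 0 in place of 1 with scaling by the median, with normexp, in the deposited table and at 4-fold, and 2 with spike-in scaling. Between the strains it was 1 in place of 0 with spike-in scaling, with the 75th percentile of detected spots, with the mean of the probes, with the second probe and at 1.5-fold. The median log2 ratio of the 9 genes moved to 0.17 for CRL1505 and 0.54 between the strains with scaling by the median, and to -0.67 and -0.41 with spike-in scaling.

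Of the other pathway genes, those at least 2-fold lower with CRL1505 numbered 2 with scaling by the median and with probes well above background on all arrays, 3 with cyclic loess, normexp and the deposited table, 9 with spike-in scaling and 1 at 4-fold, in place of 5. Those higher with CRL1505 numbered 2 with scaling by the median and with the second probe and 4 at 1.5-fold, in place of 0. With CRL1506, 1 was lower after quantile normalization and 4 at 1.5-fold, and 2 were higher with the second probe, in place of 0. Between the strains, those higher with CRL1505 numbered 7 with scaling by the median, 5 at 1.5-fold and 0 with spike-in scaling, the 75th percentile of detected spots, quantile normalization, the deposited table, the mean of the probes, the second probe and at 4-fold, in place of 1. Those lower numbered 3 without a filter and with the second probe, 2 with spike-in scaling and at 1.5-fold, and 1 with outlier spots kept and with the 75th percentile of detected spots, in place of 0. Over all genes, 2861 passed 2-fold with CRL1505 and 1498 with CRL1506, but 1837 and 757 after normexp, 1765 and 706 in the deposited table and 5906 and 3394 without a filter on dim probes. Why these values moved was not tested.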

Other observations

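The dim clone probe of *Mdh1*, 2.03-fold higher with CRL1506, was not the only probe of its kind. Probes of all genes were therefore divided into 4 classes of brightness and by whether the files assign them to a RefSeq mRNA, a division chosen after seeing the data. With CRL1506 against LPS, in the class next to the dimmest, 23.8% of 2639 probes on other transcripts were at least 2-fold higher, beside 3.79% of 4170 probes on RefSeq mRNAs. In the dimmest class these shares were 15.9% and 3.94%, and in the class next to the brightest 15.1% and 1.83%. In the brightest class the shares were 4.79% and 1.16%. With CRL1505 the shares in the class next to the dimmest were 9.95% and 6.24%. At least 2-fold lower with CRL1505 in that class were 4.15% of probes on other transcripts and 9.39% of those on RefSeq mRNAs. In the brightest class these lower shares were 1.23% and 3.75%. Among 39 members and other pathway genes with several probes detected on both arrays, the dimmest probe had a median log2 ratio of 0.18 with CRL1506 and the brightest of -0.14, and the dimmest had the higher ratio in 26. With CRL1505 these medians were -0.00 and 0.04 over 36 genes, with the dimmest higher in 12. LPS and CRL1506 + LPS shared a slide. What set the values of these probes apart was not tested.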
